A study of Rattus norvegicus with 20 samples.

Results

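The genes described here make, sense, move and store cholesterol in the liver. They were taken as a list of 32 named genes: 18 enzymes of cholesterol synthesis, 4 genes that control sterol-regulated transcription, 3 that transfer cholesterol inside the cell, 3 that store it as ester or release it, and 4 that carry it in lipoproteins. Of the 32, 29 had at least 1 annotated probe set among the 14217 genes measured: 17 synthesis enzymes, all 4 control genes, 2 transfer genes, 2 storage genes and all 4 lipoprotein genes. The synthesis enzyme Hmgcs1, the lysosomal cholesterol transporter Npc1 and the ester-forming enzyme Soat2 were not analysed here.

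RNA came from the left liver lobe of male Harlan Sprague Dawley rats, 1 rat and 1 Affymetrix expression array each. Controls received corn oil alone by gavage (n = 5), and the other rats received tricresyl phosphate (TCP), an organophosphate plasticizer and flame retardant, in the same oil. The doses were 62.3, 124.5, 248.6, 497.3 and 994.6 mg/kg, with 3 rats at each. Doses were given daily on 4 consecutive days and livers were taken on day 5. All groups therefore shared the vehicle, the gavage and the sex, and the age was not given in the labels.

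Liver cells build cholesterol from acetyl-CoA through the mevalonate pathway, whose later steps pass through farnesyl diphosphate, squalene and lanosterol. When sterols are scarce, Scap escorts the transcription factor SREBP2 (encoded by Srebf2) out of the endoplasmic reticulum to be cut and activated, and SREBP2 then raises transcription of most synthesis enzymes, while the Insig proteins hold Scap back when sterols are plentiful. Cholesterol that is not needed is esterified, packed into lipoproteins with Apob, or turned into bile acids.

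Regulatory sequence is shown for 3 members: 2 of the synthesis enzymes, which are known to share a sterol response, and Npc2, which fell with dose. The 2 enzymes were called in no main comparison. Fdft1, the only enzyme called in the trend, had no window, and the window of Scap, also called there, is not shown. The windows hold the 250 bases before the gene's start (5′ to 3′ on the gene's own strand, RefSeq, build GRCr8), and such a window was found for 22 of the 29 measured members. Capitals mark CCAAT or its reverse complement ATTGG, the core bound by the SREBP2 partner NF-Y. The windows lie on the minus strand at chr2:176804817-176805066 for Fdps (farnesyl diphosphate synthase), chr17:66547525-66547774 for Idi1 (isopentenyl diphosphate isomerase) and chr6:110149246-110149495 for Npc2 (a soluble lysosomal cholesterol carrier).
Fdps: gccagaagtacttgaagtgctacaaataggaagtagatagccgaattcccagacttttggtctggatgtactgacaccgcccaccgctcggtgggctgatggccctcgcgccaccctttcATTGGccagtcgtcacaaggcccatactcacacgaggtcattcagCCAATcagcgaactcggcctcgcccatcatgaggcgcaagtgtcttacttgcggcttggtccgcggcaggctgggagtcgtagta
Idi1: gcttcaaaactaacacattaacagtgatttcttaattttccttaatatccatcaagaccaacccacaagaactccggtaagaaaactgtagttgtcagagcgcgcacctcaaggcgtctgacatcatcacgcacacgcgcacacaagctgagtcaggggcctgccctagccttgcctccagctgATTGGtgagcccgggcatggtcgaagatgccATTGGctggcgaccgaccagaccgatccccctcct
Npc2: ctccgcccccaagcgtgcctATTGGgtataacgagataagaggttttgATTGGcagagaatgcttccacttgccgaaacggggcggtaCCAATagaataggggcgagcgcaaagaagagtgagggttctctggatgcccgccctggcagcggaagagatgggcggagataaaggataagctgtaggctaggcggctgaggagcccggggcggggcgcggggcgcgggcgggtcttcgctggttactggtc

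Searched on both strands, CCAAT occurred in 11 of 14 synthesis windows (78.6%) and in 7 of the 8 other windows (Lipa, Insig1, Npc2, Srebf2, Insig2, Soat1 and Lcat), against 35.49% of the windows of 19005 protein-coding genes. In Fdps the matches lay at 85 to 81 and at 130 to 126 bases before the start, in Idi1 at 35 to 31 and at 66 to 62, and in Npc2 at 162 to 158, 202 to 198 and 230 to 226. TCACNCCAC, the core of the sterol regulatory element, occurred in 0.92% of all windows and in 0 of the 22 windows of these genes. A match is a description of the letters in the window and not of a bound site.

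The labelled tissue was checked against hepatocyte markers. The summed level of 6 measured hepatocyte markers lay between 17.11 and 17.19 on the log2 scale in the arrays of all groups. Such a sum mostly follows its most abundant markers. The lowest marker mean was 9.45 in controls and 10.59 at 124.5 mg/kg. Tat differed from control by 0.68 ± 0.44 (limma SE) at 994.6 mg/kg, with limma's adjusted p at 0.449. The first component of all genes held 20.1% of the variance and set 1 library apart: replicate 1 of 994.6 mg/kg scored 37.1 against -14.2 to 9.14 for the other 19 arrays. The difference between 3′ and 5′ probe sets is a sign of RNA integrity. For beta-actin its group means were 2.50 in controls and 1.98 to 2.22 at the doses. For GAPDH it was 1.37 ± 0.18 (SD, n = 5) in controls and 0.72 ± 0.11 (SD, n = 3) at 994.6 mg/kg. The GAPDH means were 0.96 at 62.3 mg/kg, 0.99 at 248.6 mg/kg and 0.81 at 497.3 mg/kg. Every array of these doses and of 994.6 mg/kg lay below the lowest control, 1.13. At 124.5 mg/kg 1 array, replicate 2, read 2.58 against 0.612 to 1.56 in the other 19. Added to the fit as a covariate, the GAPDH difference left 5.82% of all genes called in the trend. It left 0.204% once that array was left out, an alternative chosen after seeing the data.

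The top-dose difference of each of the 29 members was also read without replicate 1 and with that covariate. Genes outside the members were not read singly in these ways. Without replicate 1, 1.22% of all genes were called at the top dose, against 4.47% with it. Neither called any of the 29 members (lowest adjusted p 0.0999 and 0.177), and the sign changed for 3 members without the library and for 1 with the covariate. Values under either are given beside the genes detailed, where they moved by over 1.5 times. Differences of single members at lower doses are given without the covariate.

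At 994.6 mg/kg, the highest dose, none of the 29 cholesterol genes differed from control after adjustment. Of the 17 synthesis enzymes 12 lay above control and 5 below, with Sqle highest at 1.41-fold and Idi1 at 1.39-fold. The SREBP2 escort Scap lay 1.32-fold below control and the HDL receptor Scarb1 1.31-fold below. limma called 0 of 29 members at an adjusted p of 0.05 and 9 at an unadjusted p of 0.05, 5 higher (17.24%) and 4 lower (13.79%). Among all genes, 4.47% were called, and at the unadjusted threshold 9.97% were higher and 8.6% lower.

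Lower doses gave the same count of 0 called members, where limma called no gene at 62.3 mg/kg, 0.00703% of genes at 124.5 mg/kg, 0.0563% at 248.6 mg/kg and 0.732% at 497.3 mg/kg. At an unadjusted p of 0.05 the members counted 0 higher and 1 lower (Lipa) at 62.3 mg/kg, 0 at 124.5 mg/kg, 6 higher and 0 lower at 248.6 mg/kg, and 1 higher and 2 lower at 497.3 mg/kg. For all genes the shares higher and lower were 1.34% and 1.12% at 62.3 mg/kg and 3.36% and 1.69% at 124.5 mg/kg. They were 4.03% and 2.62% at 248.6 mg/kg, and 7.28% and 4.88% at 497.3 mg/kg. limma's F test over all groups called 0 of the 29 members and 0.816% of all genes after adjustment. At an unadjusted p of 0.05 it counted 5 members (Fdft1, Fdps, Idi1, Insig1 and Sqle). Idi1 had the lowest F of these 5 and ranked 1415 by F among the 14217 genes, at percentile 90.05 of them. The genes ranked above Idi1 therefore passed that unadjusted threshold too, and the full share of all genes passing it was not counted.

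Dose steps were numbered 0 (corn oil) through 5 (994.6 mg/kg), and along them 3 of the 29 members changed (10.34%, against 6.47% of all genes, of which 3.9% were higher and 2.57% lower). Fdft1, squalene synthase and the first enzyme committed to sterols, rose. Scap and Npc2 fell. At an unadjusted p of 0.05 the trend had 6 higher members, all synthesis enzymes (Acat2, Idi1, Fdps, Fdft1, Sqle and Cyp51), and 5 lower (Insig1, Scap, Npc2, Scarb1 and Lcat), beside 11.5% of all genes higher and 9.22% lower. The median slope of the 29 members was -0.0045 per dose step, and that of all genes -0.0002.

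**Figure D1:**
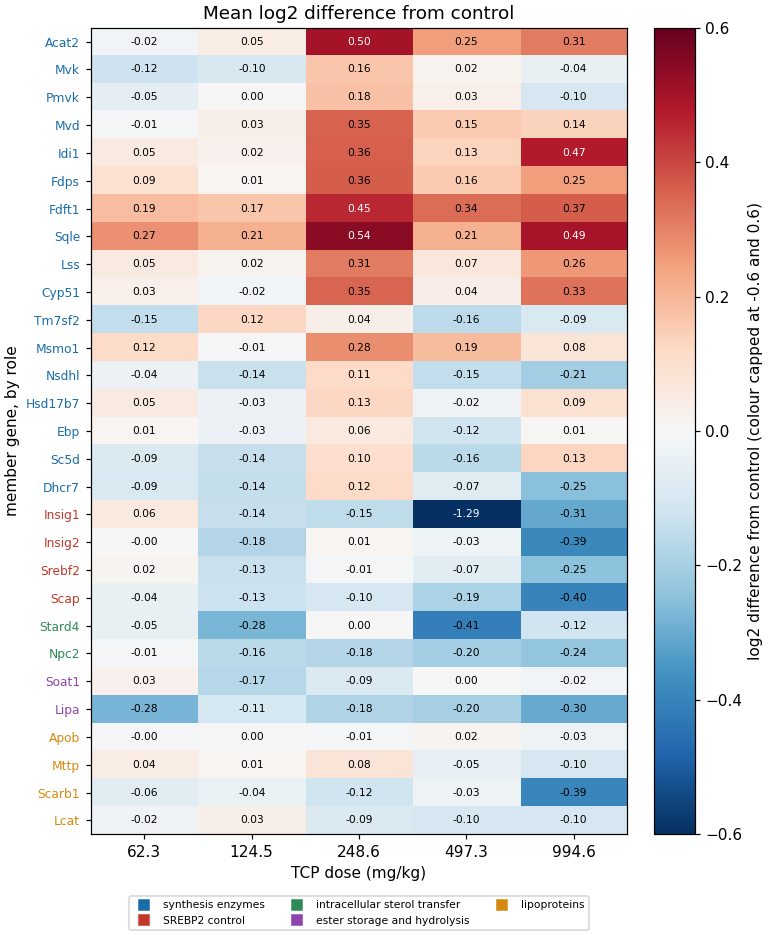
Log2 difference from the control mean for the 29 measured members (rows, grouped by role) at each dose of TCP in mg/kg (columns), with the colour capped at 0.6 in either direction. In the probe sets used, all 17 synthesis enzymes lay above control at 248.6 mg/kg. In the same probe sets, all 4 control genes and all 4 lipoprotein genes lay below it at 994.6 mg/kg. limma called no member at any single dose.

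The synthesis enzymes had the members that lay farthest above control. Their median difference from control was 0.01 at 62.3 mg/kg, 0.0002 at 124.5 mg/kg, 0.28 at 248.6 mg/kg, 0.04 at 497.3 mg/kg and 0.13 at 994.6 mg/kg, where the medians of all genes lay between -0.0071 and 0.013. In the probe sets used, all 17 were above control at 248.6 mg/kg, by 0.04 to 0.54 on the log2 scale. The lowest of limma's adjusted p was 0.498, and 46.5% of all genes lay below control there. Replicate 2 of that dose had 10 of the 17 above the control mean. Of the members' 18 other probe sets, 9 had the opposite sign at that dose and 9 the same. Among the enzymes the opposite ones were Mvk (1375401_at) at -0.0086 and Sc5d (1389111_at) at -0.02. The top dose had 12 above and 5 below, between -0.25 and 0.49, with 51.6% of all genes below. The dose between them, 497.3 mg/kg, had 11 above and 6 below, with 47.8% of all genes below.

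Fdft1 (probe set 1367839_at) read 11.14, 11.11, 10.99, 10.85 and 11.01 in the 5 control rats, on the log2 scale used for every level here. Its values were 11.45, 11.03 and 11.15 at 62.3 mg/kg, 11.17, 11.18 and 11.21 at 124.5 mg/kg, 11.45, 11.22 and 11.76 at 248.6 mg/kg, 11.24, 11.31 and 11.53 at 497.3 mg/kg, and 11.13, 11.33 and 11.70 at 994.6 mg/kg. All rats at 124.5, 248.6 and 497.3 mg/kg lay above every control, and at the top dose replicate 1 lay inside the control range. The mean difference from control was 0.45 ± 0.13 (limma SE) at 248.6 mg/kg, 0.34 ± 0.13 at 497.3 mg/kg and 0.37 ± 0.13 at 994.6 mg/kg, with limma's adjusted p at 0.503, 0.281 and 0.122. Without replicate 3 of 994.6 mg/kg the last of these was 0.21. The slope was 0.08 ± 0.02 per dose step (adjusted p = 0.0389). The adjusted p was 0.0918 with the GAPDH covariate, 0.063 after quantile normalization once more, 0.131 with a replicate block, 0.172 on dose in mg/kg and 0.676 in treated rats alone, where the slope was 0.05. Leaving out 1 array in turn, the call was kept in 10 of 20 cases. It was lost without any 1 of the 5 controls, and without replicate 2 or 3 of 62.3 mg/kg, replicate 1 of 248.6 mg/kg or replicate 3 of 497.3 or 994.6 mg/kg, with adjusted p up to 0.102.

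Sqle, squalene epoxidase, which oxidizes squalene in the next step, read 9.15, 9.22, 9.22, 8.94 and 8.86 in controls. It read 9.54, 9.51 and 9.81 at 248.6 mg/kg and 9.41, 9.44 and 9.87 at 994.6 mg/kg, above every control at both doses. At 497.3 mg/kg it read 8.89, 9.38 and 9.60, so that the groups overlapped. At 62.3 mg/kg 1 rat stood at 9.81 and the others at 9.15 and 9.08, and the rats at 124.5 mg/kg read 9.39, 9.19 and 9.28. The difference from control was 0.54 ± 0.17 at 248.6 mg/kg (adjusted p = 0.581) and 0.49 ± 0.17 at 994.6 mg/kg (adjusted p = 0.102, 95% interval 0.14 to 0.85), and the slope of 0.08 ± 0.03 per dose step had an adjusted p of 0.109. With array weights the top-dose difference was 0.39 and was called (adjusted p = 0.0293).

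Idi1, which interconverts the isoprenoid building blocks of the pathway, read 10.56, 10.58, 10.54, 10.11 and 10.29 in controls and 10.93, 10.55 and 11.18 at 994.6 mg/kg. Replicate 2 of the top dose lay inside the control range. The difference there was 0.47 ± 0.16 (adjusted p = 0.0908, 95% interval 0.15 to 0.80). It was 0.19 (adjusted p = 0.286) with array weights and 0.64 (adjusted p = 0.0352) without replicate 2, and the slope of 0.08 ± 0.03 had an adjusted p of 0.0729. The rats at 248.6 mg/kg read 10.87, 10.58 and 10.88, with a difference of 0.36 ± 0.16.

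Fdps, whose product feeds sterols as well as protein prenylation, read 13.17, 13.13, 12.99, 12.98 and 13.09 in controls. Values were 13.38, 13.21 and 13.71 at 248.6 mg/kg and 13.33, 13.21 and 13.43 at 994.6 mg/kg, above every control at both doses. The differences were 0.36 ± 0.11 (adjusted p = 0.498) and 0.25 ± 0.11 (adjusted p = 0.196). Without replicate 3 of 248.6 mg/kg the first difference was 0.23, and the second was 0.15 with the GAPDH covariate and 0.16 with array weights. Acat2, which joins acetyl-CoA units at the start of the pathway, differed from control by 0.50 ± 0.17 at 248.6 mg/kg and 0.31 ± 0.17 at 994.6 mg/kg. Cyp51, lanosterol demethylase, differed by 0.35 ± 0.14 at 248.6 mg/kg, or by 0.23 without its replicate 3, and by 0.33 ± 0.14 at 994.6 mg/kg (adjusted p = 0.201), or by 0.22 with the covariate and 0.13 with array weights.

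Groups that do not overlap were counted without a test. At 248.6 mg/kg Fdps, Fdft1 and Sqle had all 3 rats above all 5 controls (10.34% of members, against 4.25% of all genes), and Npc2 and Scarb1 had all 3 below (all genes 3.07%). Fdps and Sqle lay wholly above control at 994.6 mg/kg (6.9%, all genes 6.91%), and Scap, Npc2, Scarb1 and Lcat wholly below (13.79%, all genes 7.12%). At 497.3 mg/kg Fdft1 lay above (all genes 5.71%) and Insig1, Scap and Stard4 below (all genes 4.29%). Fdft1 lay above at 124.5 mg/kg (all genes 2.24%), with none below (all genes 1.27%). No member separated from control at 62.3 mg/kg, where 1.44% of all genes lay wholly above and 1.32% wholly below.

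**Figure D2:**
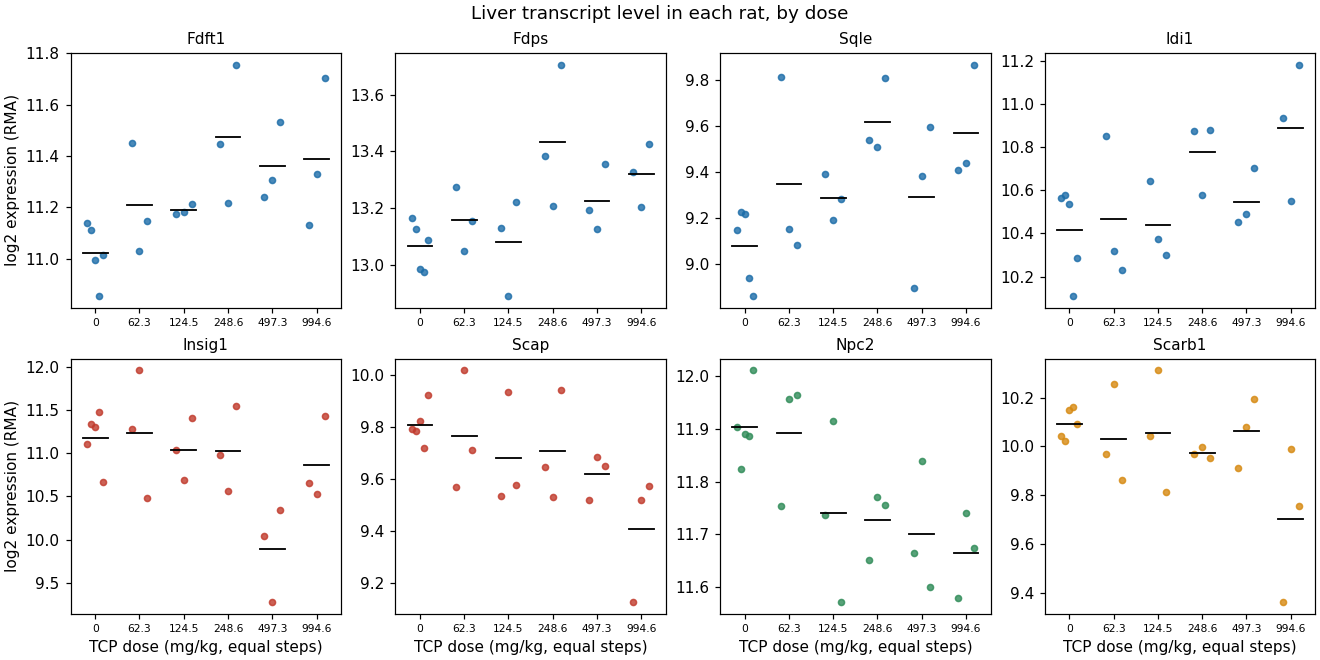
Log2 level (RMA, vertical axes) of 8 members by dose of TCP in mg/kg, with a dot for each rat and a bar for the group mean (control n = 5, each dose n = 3). Fdps and Sqle lay above every control at 248.6 and 994.6 mg/kg, Insig1 lay below every control at 497.3 mg/kg, and Scap, Npc2 and Scarb1 lay below every control at 994.6 mg/kg.

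The other 11 measured synthesis enzymes differed from control by -0.25 to 0.26 at the top dose. Mvd, which decarboxylates mevalonate diphosphate, differed by 0.14, and Lss, which closes the sterol rings of lanosterol, by 0.26. Msmo1, a methylsterol oxidase, differed by 0.08 with a 95% interval of -0.44 to 0.60, and had the largest SD of any member at that dose (0.59), with rats at 10.90, 11.59 and 12.08. Hsd17b7, Ebp and Sc5d, which act after lanosterol, differed by 0.09, 0.01 and 0.13. Mvk and Pmvk, the kinases of the early pathway, differed by -0.04 and -0.10, Tm7sf2 and Nsdhl of the later pathway by -0.09 and -0.21, and Dhcr7, the reductase that yields cholesterol, by -0.25. Without replicate 1, Mvk stood at 0.14, Pmvk at -0.07, Ebp at -0.05, Mvd at 0.33, Msmo1 at 0.39 and Hsd17b7 at 0.17. In the same fit Sc5d stood at 0.08, Tm7sf2 at -0.16, Nsdhl at -0.11 and Dhcr7 at -0.10. The covariate gave Mvk 0.01, Pmvk -0.03, Mvd 0.30, Lss 0.39, Msmo1 0.13 and Hsd17b7 0.21. It gave Ebp 0.11, Sc5d 0.20, Tm7sf2 -0.0051, Nsdhl -0.12 and Dhcr7 -0.11. None of these passed the test at any dose.

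Rats within a group differed in most enzymes at once. The mean level of the 17 enzymes, set against the control mean, was 0.23, 0.06 and 0.49 in the 3 rats at 248.6 mg/kg, and 0.03, 0.01 and 0.35 in those at 994.6 mg/kg. Replicate 3 stood highest at both doses, and in it 16 and 17 of the 17 enzymes exceeded their own group's mean. At 497.3 mg/kg the values were -0.09, 0.07 and 0.18, so replicate 3 was highest there too, with 15 of the 17 enzymes above the group mean. At 62.3 mg/kg the values were 0.21, -0.06 and -0.10, with replicate 1 highest. At 124.5 mg/kg they were -0.01, 0.09 and -0.07, with replicate 2 highest. The 5 controls spanned -0.19 to 0.12: replicate 1 had 16 of 17 enzymes above the control mean and replicate 4 had 0 of 17. For all genes, the share above the group mean lay between 41.9% and 60.4% in every array.

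Group means of that enzyme average followed no steady order with dose. They were 0.02 ± 0.17 (SD, n = 3) at 62.3 mg/kg, 0.0017 ± 0.08 at 124.5 mg/kg, 0.26 ± 0.22 at 248.6 mg/kg, 0.05 ± 0.13 at 497.3 mg/kg and 0.13 ± 0.19 at 994.6 mg/kg, against a control SD of 0.12 (n = 5). The highest mean stood at 248.6 mg/kg. Because the enzymes of a rat moved together, they are not independent readings of a dose.

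**Figure D3:**
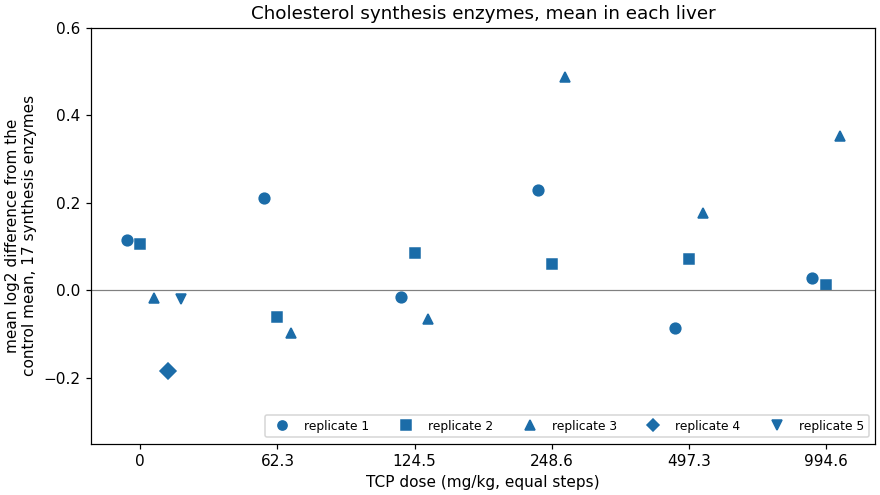
Mean log2 difference from the control mean over the 17 measured synthesis enzymes (vertical axis) for each rat by dose of TCP in mg/kg, with the marker shape giving the replicate. Controls ranged from -0.19 to 0.12, and replicate 3 of 248.6 mg/kg (0.49) and of 994.6 mg/kg (0.35) stood highest.

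Among the genes that govern SREBP2, Scap fell with dose and Insig1 showed the largest single difference of any member. All 4 control genes (Insig1, Insig2, Srebf2 and Scap) lay below control at 124.5, 497.3 and 994.6 mg/kg, where 45.6%, 47.8% and 51.6% of all genes did. At 248.6 mg/kg 3 of the 4 lay below, as did 46.5% of all genes. At 62.3 mg/kg 2 did, where the median of all genes was 0.0033. At 124.5, 497.3 and 994.6 mg/kg the second Insig2 probe set (1389377_at) differed by -0.13, 0.05 and -0.17. The second Scap probe set (1384464_at) differed by 0.03, 0.04 and 0.04, and that of Srebf2 (1377489_at) by -0.12, -0.06 and -0.08. In the probe sets used, the median difference of the 4 genes at the top dose was -0.35, with a range of -0.40 to -0.25, against -0.0071 for all genes. None was called at a single dose. Without replicate 1 of the top dose the differences were -0.20 for Insig1, -0.13 for Insig2, -0.01 for Srebf2 and -0.26 for Scap.

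Scap (probe set 1389567_at) read 9.79, 9.79, 9.82, 9.72 and 9.93 in controls. It read 9.57, 10.02 and 9.71 at 62.3 mg/kg, 9.54, 9.93 and 9.58 at 124.5 mg/kg, 9.65, 9.53 and 9.94 at 248.6 mg/kg, 9.52, 9.68 and 9.65 at 497.3 mg/kg, and 9.13, 9.52 and 9.57 at 994.6 mg/kg. The rats at the 2 top doses lay below every control, and the lower doses overlapped it. The slope was -0.07 ± 0.02 per dose step (adjusted p = 0.0477), and the top dose differed from control by -0.40 ± 0.12 (adjusted p = 0.0706, 95% interval -0.66 to -0.14).

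The lowest Scap value came from the library that stood apart. Without it, the top-dose difference was -0.26 (adjusted p = 0.432) and the slope -0.05 (adjusted p = 0.161). The top-dose difference was -0.25 (adjusted p = 0.277) with the GAPDH covariate and -0.18 (adjusted p = 0.331) over both probe sets. It was called without the lowest 50% of genes (adjusted p = 0.0484), after quantile normalization once more (0.0389) and with array weights (0.00871). Leaving out 1 array in turn, the trend call was kept in 7 of 20 cases. It was lost without any 1 of the 5 controls, replicate 2 or 3 of 62.3 mg/kg, replicate 1 or 2 of 248.6 mg/kg, replicate 1 of 497.3 mg/kg or any rat of 994.6 mg/kg. The slope was -0.03 (adjusted p = 0.291) when both Scap probe sets were averaged and -0.04 (adjusted p = 0.233) with the GAPDH covariate. Its call was also lost with medians subtracted (adjusted p = 0.0628), with a replicate block (0.0653) and in treated rats alone (0.383). The other Scap probe set had a slope of 0.0083 (adjusted p = 0.885).

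Insig1, the sterol-sensing retention protein whose own transcription follows SREBP activity and insulin, read 11.11, 11.34, 11.30, 11.47 and 10.67 in controls. At 497.3 mg/kg the rats read 10.04, 9.28 and 10.34, all below every control. The top dose gave 10.66, 10.52 and 11.43, values that overlapped the controls. The values at 62.3 mg/kg, 11.28, 11.96 and 10.48, had the largest SD of its groups (0.74).

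The Insig1 difference at 497.3 mg/kg was -1.29 ± 0.31, a 2.44-fold lower level (adjusted p = 0.069, 95% interval -1.94 to -0.64). Without replicate 2 of that dose, the lowest rat, it was -0.98 (adjusted p = 0.282). The top-dose difference was -0.31 ± 0.31 (adjusted p = 0.666), and ran from -0.59 without replicate 3 to -0.14 without replicate 2. The direct comparison of the 2 top doses gave 0.98 ± 0.35 (adjusted p = 0.517), with 0 of 29 members called, 2 at an unadjusted p of 0.05 (Insig1 higher, Scarb1 lower) and 0.0211% of all genes called. At that unadjusted threshold 3.11% of all genes were higher and 4.5% lower.

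Insig2, the form of Insig that is abundant in fasting liver, differed by -0.39 ± 0.20 at 994.6 mg/kg (adjusted p = 0.315). Its rats read 11.06, 12.09 and 11.54 there against 12.03, 12.08, 12.18, 11.64 and 11.83 in controls. Srebf2 itself read 9.26, 9.98 and 9.94 at the top dose and between 9.91 and 10.05 in controls. Its difference was -0.25 ± 0.16 (adjusted p = 0.452), or -0.04 with the GAPDH covariate, and the low value belonged to replicate 1, as it did for Scap and Insig2.

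Of the genes that move cholesterol between membranes, Npc2 fell with dose. Npc2 lifts free cholesterol out of degraded lipoproteins inside the lysosome. The controls read 11.90, 11.82, 11.89, 11.89 and 12.01, and the rats at 994.6 mg/kg 11.58, 11.74 and 11.67. The rats at 248.6 mg/kg, at 11.65, 11.77 and 11.76, also lay below every control.

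Other doses of Npc2 overlapped the controls. The values were 11.75, 11.96 and 11.96 at 62.3 mg/kg, 11.74, 11.91 and 11.57 at 124.5 mg/kg, and 11.67, 11.84 and 11.60 at 497.3 mg/kg. The slope was -0.05 ± 0.01 per dose step (adjusted p = 0.0253), and the top dose differed from control by -0.24 ± 0.09 (adjusted p = 0.120, 95% interval -0.42 to -0.06), a 1.18-fold lower level. The trend call was kept in 18 of 20 cases with 1 array left out. It was lost without control replicate 5 (adjusted p = 0.062) or replicate 1 of 994.6 mg/kg (adjusted p = 0.0663), and with the GAPDH covariate the slope was -0.04 (adjusted p = 0.109) and the top-dose difference -0.15. The trend call was also lost with a replicate block (adjusted p = 0.0669), on dose in mg/kg (0.0877) and in treated rats alone (0.43), and with array weights the top-dose difference of -0.18 was called (0.0346).

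Macrophages of the liver also express Npc2, Lipa and Soat1. The summed level of 6 measured macrophage markers of 8 listed ranged from 12.7 to 13.4 in controls and from 13.1 to 13.4 at 994.6 mg/kg, and 0 of the 6 were called in any comparison with control or in the trend. In bulk tissue, fewer cells of a type and less RNA per cell cannot be told apart. Among the other lists, 4 of 5 erythroid markers fell at 994.6 mg/kg, with summed levels of 13.78 ± 0.10 (SD, n = 5) in controls and 12.28 ± 0.88 (SD, n = 3) at that dose, while 1 of 3 measured biliary markers, Epcam, rose by 0.69 ± 0.14 and Krt19 and Krt7 differed by 0.24 and -0.0099. Their part in the results was not tested.

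Stard4, a soluble sterol carrier of the cytosol, read 9.02, 8.99 and 8.72 at 497.3 mg/kg, below all controls, which read 9.04 to 9.55. The difference was -0.41 ± 0.22 (adjusted p = 0.490). At 994.6 mg/kg it was -0.12, or -0.02 with the GAPDH covariate, and 0.15 without replicate 1, which read 8.66 beside 9.29 and 9.66 in the others. Of its further probe sets, 1 (1396521_at) differed by 0.14 at 497.3 mg/kg and by 0.05 at 994.6 mg/kg, and the other (1386279_at) by -0.24 and -0.18.

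The storage genes gave no call. Lipa, the acid lipase that frees cholesterol from lipoprotein esters in lysosomes, read 11.74, 11.59, 11.90, 12.15 and 11.65 in controls and 11.61, 11.48 and 11.42 at 994.6 mg/kg. It read 11.47, 11.42 and 11.70 at 62.3 mg/kg, 11.78, 11.97 and 11.35 at 124.5 mg/kg, 11.56, 11.62 and 11.70 at 248.6 mg/kg, and 11.66, 11.56 and 11.60 at 497.3 mg/kg. The groups overlapped at every dose. The difference was -0.28 ± 0.13 at the lowest dose and -0.30 ± 0.13 at the highest (adjusted p = 0.200, 95% interval -0.57 to -0.03), and the slope of -0.04 had an adjusted p of 0.256. With the GAPDH covariate the top-dose difference was -0.18 and the slope -0.02. The slope was -0.03 without control replicate 4 and -0.01 in treated rats alone, and with array weights the top-dose difference was called (adjusted p = 0.0158).

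Soat1, which esterifies cholesterol in many tissues, had a mean level at percentile 11.2 of all genes. Its controls read 5.07, 5.01, 4.83, 4.75 and 4.95. The rats read 4.91, 4.95 and 4.99 at 62.3 mg/kg, 4.79, 4.62 and 4.84 at 124.5 mg/kg, 4.95, 4.83 and 4.71 at 248.6 mg/kg, 4.92, 4.81 and 5.05 at 497.3 mg/kg, and 4.91, 4.73 and 5.07 at 994.6 mg/kg. The groups overlapped at each dose, and the top-dose difference was -0.02 with a 95% interval of -0.21 to 0.18, or -0.10 with the GAPDH covariate.

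All 4 lipoprotein genes lay below control at 994.6 mg/kg, by 0.03 to 0.39 on the log2 scale, and none was called. Scarb1, the receptor through which liver takes cholesterol ester from HDL, lay lowest. It read 10.04, 10.02, 10.15, 10.16 and 10.09 in controls and 9.36, 9.99 and 9.76 at 994.6 mg/kg, below every control. The rats read 9.97, 10.26 and 9.86 at 62.3 mg/kg, 10.04, 10.31 and 9.81 at 124.5 mg/kg, 9.97, 10.00 and 9.95 at 248.6 mg/kg, and 9.91, 10.08 and 10.19 at 497.3 mg/kg.

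The Scarb1 difference at the top dose was -0.39 ± 0.13 (adjusted p = 0.0856, 95% interval -0.66 to -0.12). It was -0.22 (adjusted p = 0.514) without replicate 1, the library that stood apart, and -0.53 (adjusted p = 0.0291) without replicate 2. It was -0.23 with the GAPDH covariate, -0.14 with array weights and -0.44 (adjusted p = 0.0418) after quantile normalization once more. The same level against 497.3 mg/kg differed by -0.36 ± 0.14 (adjusted p = 0.575), or by -0.19 without replicate 1 of 994.6 mg/kg and -0.08 with array weights.

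Mttp, which loads lipid onto apolipoprotein B, read 11.98, 12.21, 12.16, 11.99 and 12.13 in controls and between 11.96 and 12.01 in the 3 rats at 994.6 mg/kg. It read 12.29, 12.16 and 11.96 at 62.3 mg/kg, 12.24, 12.06 and 12.03 at 124.5 mg/kg, 12.25, 12.09 and 12.18 at 248.6 mg/kg, and 12.08, 12.07 and 11.99 at 497.3 mg/kg. The top-dose difference was -0.10 ± 0.08 with a 95% interval of -0.28 to 0.07. Apob, the structural protein of VLDL and LDL, differed by -0.03 ± 0.06 (95% interval -0.15 to 0.09), or by -0.02 with the GAPDH covariate. Lcat, the plasma enzyme that esterifies cholesterol on HDL, read 13.25, 13.37 and 13.37 at 994.6 mg/kg against 13.38 to 13.45 in controls, a difference of -0.10 ± 0.06 (adjusted p = 0.413), or of -0.06 without replicate 1.

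**Figure D4:**
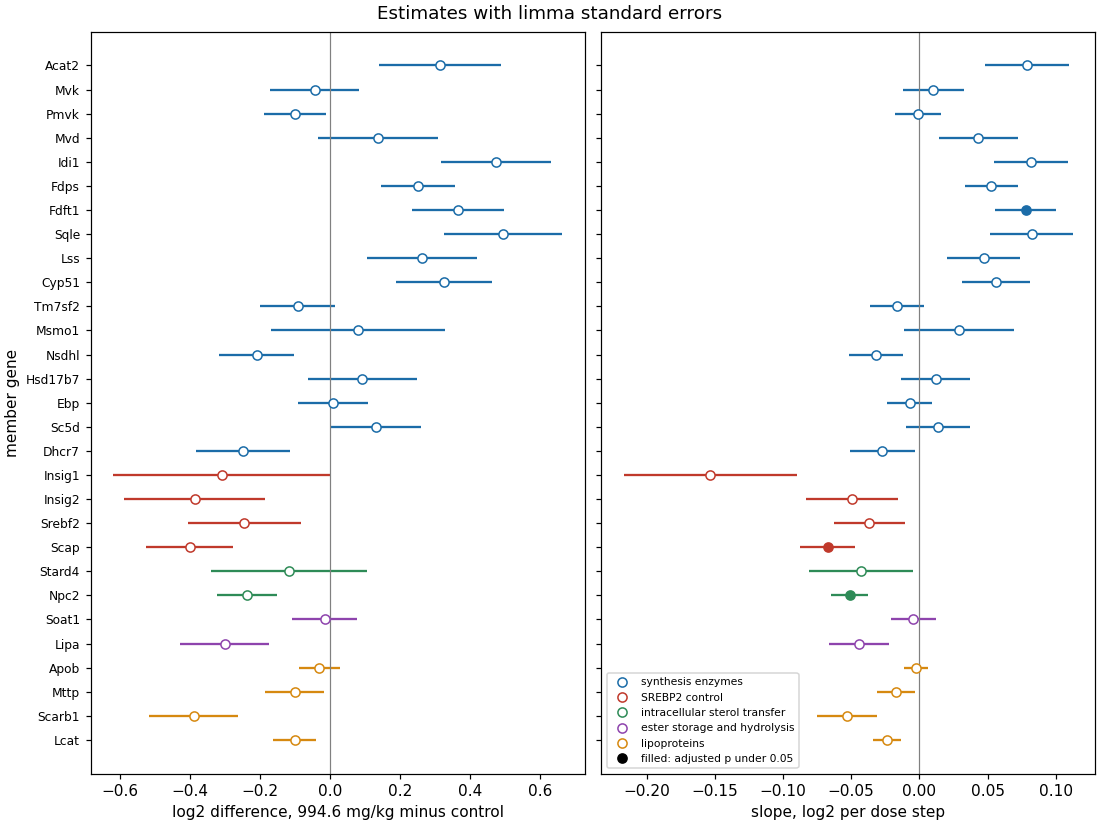
Estimates for the 29 members with limma's standard error as bars: the log2 difference of 994.6 mg/kg from control, and the slope of the log2 level per dose step, with filled points where the adjusted p was under 0.05. No point is filled for the top dose, and Fdft1, Scap and Npc2 are filled for the slope.

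Other genes of cholesterol handling were counted from 3 further lists. Their values were not read without replicate 1 of 994.6 mg/kg or with the GAPDH covariate. Of 16 measured genes (19 listed) tied to the sterol pathway or SREBP2, 0 were called at 497.3 mg/kg or lower. Stard5, a sterol-binding protein, fell by 0.69 ± 0.13 at 994.6 mg/kg (adjusted p = 0.00556) and along the trend. In the trend Erlin1, an endoplasmic reticulum membrane protein of sterol sensing, rose by 0.08 ± 0.02 per dose step (adjusted p = 0.00908), and Dhdds, which uses farnesyl diphosphate to make dolichol, rose by 0.08 ± 0.02 (adjusted p = 0.0278).

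The list of sterol export, LXR and bile acid genes had 13 of 13 measured, with 2 higher and 2 lower at 497.3 mg/kg, at 994.6 mg/kg and in the trend. Abcg5 and Abcg8 form the sterol exporter of the bile canaliculus. At 497.3 mg/kg Abcg5 fell by 1.87 ± 0.32 (adjusted p = 0.00827), and Abcg8 fell by 1.70 ± 0.23 (adjusted p = 0.0012). Cyp7a1, which opens the classic route from cholesterol to bile acids, rose by 1.55 ± 0.32 (adjusted p = 0.0258), and Cyp8b1, which directs that route to cholic acid, by 0.78 ± 0.17 (adjusted p = 0.0416). No cholesterol member passed at that dose, and Insig1 had the lowest adjusted p among them, 0.069.

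In the list of lipoprotein, ester and transfer genes, 13 of 16 were measured. Nceh1, a neutral cholesterol ester hydrolase, rose by 1.30 ± 0.28 at 994.6 mg/kg (adjusted p = 0.0105). Lipc, hepatic lipase, fell by 0.45 ± 0.09 (adjusted p = 0.00798), and Pltp, the phospholipid transfer protein of plasma, by 0.47 ± 0.12 (adjusted p = 0.032). Nceh1, Lipc and Ces1d, a carboxylesterase, passed in the trend, Nceh1 higher and the others lower.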

How the data were processed

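Liver RNA of 20 rats in 6 groups was analysed, grouped by the dose in the sample titles. The authors deposited 1 log2 value per probe set and array, summarized with RMA as the submitters' processing notes record. Its version and the set of arrays normalized together are not given in the sources used here. RMA equalizes the distributions of arrays, so values show change against most other genes. The table held 31099 probe sets (57 controls), of which 20826 had 1 gene symbol, 436 several and 9780 none here. Symbols were updated by gene identifier for 20758, by accession for 2, and 66 were kept. Each gene was read from its probe set of highest mean level, giving 14217 genes.

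One model with a mean per group was fitted with limma 3.58.1 in R 4.3.3 (14 residual and 4.77 prior degrees of freedom), without a filter on low values. In it each dose was compared with control, the 2 top doses with each other, and all groups by the F test. The trend was the slope on dose step in a second limma fit, with its own variance and degrees of freedom. A call needed a p under 0.05 after Benjamini-Hochberg adjustment over all genes, and the error of a difference or slope is limma's standard error. A simulation of 14217 genes planted changes that grew in proportion to dose step, the form the trend fit assumes, with noise drawn independently for each gene. For 994.6 mg/kg against control, it recovered 59% of 100 changes of 0.5 and 95% of 100 changes of 1 (log2), with 6 false calls. The trend recovered 81% and 98%, with 16. These rates do not cover genes that move together within a rat or are highest at a middle dose.

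The members, the gene lists and the motifs were chosen with earlier results of these data known. Members called, and for roles without a call the 2 with the largest difference at 994.6 mg/kg, are given in every group. Sqle, Idi1, Fdps, Insig1, Insig2, Srebf2, Stard4, Apob and Lcat were detailed after their values were seen. Of 45 pairs of same-numbered arrays in different groups, 16 correlated above 0.1 (median 0.03, range -0.38 to 0.37). Of 90 pairs with different numbers 20 did (median -0.03, range -0.34 to 0.34). The titles only number the arrays, so the main fit used no pairing, and a replicate block was run as an alternative. Alternatives were a filter, averaged probe sets, further normalization, eBayes options, array weights, the replicate block, a GAPDH covariate, other dose scales, fewer samples and each array left out. The number of arrays limits the precision.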

Additional observations from a re-analysis of the deposited data

Results flagged for a closer look

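In the 5 control rats, 2 of the 29 members had 1 array far from the others, by the gap to the nearest value over the whole range, which chance alone gives in about 1 in 20 groups. Cyp51 read 11.98 in control replicate 1, against 11.73 to 11.79 in the other 4, a gap of 0.752 of the range. Lcat read 13.38 in control replicate 2, against 13.43 to 13.45 in the other 4, a gap of 0.744 of the range.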

How the results depend on the processing

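Counts of called members stayed at 0 for 62.3, 124.5 and 248.6 mg/kg and for the 2 top doses against each other under the alternatives run. At 497.3 mg/kg 1 member (Insig1) was called with array weights (1.98% of all genes) and 1 with only the 2 groups fitted (1.65%). At 994.6 mg/kg the count was 1 without the lowest 50% of genes (10.3% of all genes called), 2 with quantile normalization once more (6.93%), 7 of 29 with array weights (20% of all genes) and 0 to 2 with 1 array left out. The trend's 3 calls became 0 with the GAPDH covariate (5.82% of all genes), 0 with that covariate and its outlying array left out (0.204%, chosen after seeing the data), 1 on dose in mg/kg (6.24%), 0 in treated arrays alone (0.218% of all genes) and 0 to 5 with 1 array left out: 5 without replicate 1 of 62.3 mg/kg, 0 without control replicate 5 and 1 without replicate 1 of 994.6 mg/kg. The F test called 1 (Insig1) with array weights (8.77%). The replicate block left 0 trend calls (4.45% of all genes) and no call at a dose, without control replicates 4 and 5, which have no partner. The closest array of another group shared the number for 8 of 18 arrays, and what the numbers stand for is not given in the titles. Soat1 at 994.6 mg/kg turned to 0.0126 with averaged probe sets, 0.00403 with quantile normalization and 0.00301 with medians subtracted, and ran from -0.0999 to 0.0704 with 1 array left out. Its slope turned to 0.00538 with averaged probe sets, 1.96e-05 on mg/kg and 0.00875 in treated arrays, and ran from -0.0149 to 0.00276 with 1 array left out. Insig1 at 994.6 mg/kg turned to 0.59 with the covariate and its outlying array left out. The check of single members covered chosen genes and comparisons, most of them not called in the main fit. A value that stayed uncalled with its sign counted as kept. Mvk, Ebp and Stard4, whose top-dose sign changed without replicate 1, were not in this check. Of the checked values under alternatives, 772 kept direction and side of the threshold, 42 lost a call, 15 gained one and 13 changed sign. The cause of these changes was not tested. Tested by itself, after seeing the data, each probe set gave 2 trend calls among 47, Fdft1 and Npc2, beside 5.09% of all probe sets.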

Other observations

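The 29 members had 47 probe sets, and the 18 not used above were read by themselves with p adjusted over 20826 probe sets. None of the 47 was called at a single dose. A further Idi1 probe set (1368878_at) differed from control by 0.70 ± 0.27 at 994.6 mg/kg (adjusted p = 0.168), and a further Sc5d probe set (1387926_at) by 0.34 ± 0.11 (adjusted p = 0.0889). The second Hsd17b7 probe set (1387233_at) differed by 0.50 ± 0.26 and the second Scarb1 probe set (1367855_at) by -0.23 ± 0.13. Of the 18, 8 had the opposite sign to the probe set used at 994.6 mg/kg. Among them were Lss (1368086_a_at) at -0.09 against 0.26, Mvk (1387119_at) at 0.17 against -0.04 and Apob (1371157_at) at 0.18 against -0.03, none of them called. The second Fdft1 probe set (1389906_at) had a slope of 0.07 per dose step (adjusted p = 0.0541).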
